A study of Mus musculus with 6 samples.

Results

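Genes for keratins, desmosomal cadherins and proteins of the cornified envelope were followed in RNA from mouse mammary tumors, 59 genes of the 16763 in the deposited table. They were chosen by gene symbol: every Krt gene with a number, every Sprr, Dsg, Dsc and Lce gene, Ivl, Lor, Flg and Flg2. The family itself was selected on earlier results of these data, namely the deposited calls of Krt16 and Dsg3 and the counts of Krt1 and Krt5 in 1 library, so all of its values are given as a description. Tumors had been induced in BALB/c mice, listed as male, with 4T1, an established carcinoma line from a mammary tumor of that strain. The labels give the organism as mouse, although their short descriptions say rat. One group is labelled model, with no treatment named, and the other received DMDD liposome, a liposome being a lipid vesicle that can carry a compound. The labels give DMDD by its abbreviation only, and no dose, time or age. Each group had 3 libraries, called replicates 1 to 3. The labels do not tie a library to a mouse. The p-values therefore judge the difference between groups only against the spread of these libraries within a group, which may be technical. All tumors derive from the same cell line.

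Keratins are the intermediate filament proteins of epithelial cells, and a filament forms only from a type I and a type II keratin together. Krt8 and Krt18 pair in simple epithelia and most carcinomas, Krt5 and Krt14 in the basal layer of epidermis and in basal mammary cells, and Krt1 and Krt10 in the upper epidermis. Desmosomal cadherins (desmogleins and desmocollins) join neighboring cells and anchor these filaments at the membrane. Involucrin (Ivl), loricrin (Lor), the small proline-rich proteins (Sprr), the late cornified envelope proteins (Lce) and filaggrin (Flg) build the hard shell of dead surface cells in skin.

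To show the regulatory DNA of genes with opposite patterns below, the 150 bases before the annotated start are printed for 4 genes of stratified epithelium (Krt5, Lor, Sprr1a and Ivl) and for the simple keratins Krt8 and Krt18. The sequences are from RefSeq on GRCm38.p6, a later build than the mm9 named for the deposited counts, and run 5′ to 3′ on the gene's strand. They lie at chr15:101712906-101713055 (minus strand), chr3:92083143-92083292 (minus), chr3:92485882-92486031 (minus), chr3:92573736-92573885 (minus), chr15:102004343-102004492 (minus) and chr15:102028066-102028215 (plus). Capitals mark matches to TGANTCA, the core recognized by AP-1 factors, and to TATAAA, searched on both strands, whose letters cannot overlap each other.
Krt5: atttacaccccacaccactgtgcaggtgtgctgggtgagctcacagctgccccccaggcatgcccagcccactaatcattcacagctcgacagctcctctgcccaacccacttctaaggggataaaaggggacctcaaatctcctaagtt
Lor: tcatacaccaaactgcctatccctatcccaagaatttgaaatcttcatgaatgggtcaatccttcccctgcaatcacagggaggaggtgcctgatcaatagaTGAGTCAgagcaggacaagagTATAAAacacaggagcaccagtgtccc
Sprr1a: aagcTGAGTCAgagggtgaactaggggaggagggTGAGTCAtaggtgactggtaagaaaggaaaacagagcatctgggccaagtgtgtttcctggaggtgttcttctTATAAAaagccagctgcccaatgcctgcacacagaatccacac
Ivl: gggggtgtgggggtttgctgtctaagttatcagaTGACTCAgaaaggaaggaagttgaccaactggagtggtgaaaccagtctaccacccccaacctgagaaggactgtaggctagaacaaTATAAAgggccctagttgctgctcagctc
Krt8: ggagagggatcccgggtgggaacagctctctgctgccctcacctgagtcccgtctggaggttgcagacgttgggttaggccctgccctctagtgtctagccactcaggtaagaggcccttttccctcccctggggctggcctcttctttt
Krt18: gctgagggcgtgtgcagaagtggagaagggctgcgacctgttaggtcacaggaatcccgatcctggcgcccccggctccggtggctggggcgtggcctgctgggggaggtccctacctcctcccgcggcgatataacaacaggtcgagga

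Sprr1a held 2 TGANTCA matches in this stretch, Lor and Ivl held 1 each, and Krt5, Krt8 and Krt18 held 0. A promoter entry existed for 38 of the 59 members, with 39 starts. In the 250 bases before the start, TGANTCA occurred in 9 of the 39 (23.1%), against 6.75% of 32851 promoters of all genes, and TATAAA in 15 (38.5%) against 12.4%. Of the 9, 7 were among the 17 starts of cornified envelope genes and 2 among the 22 of keratins. The cornified envelope genes include near copies of each other, so their promoters are not independent examples.

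Libraries held 13037500 to 15616840 counts, where 3 counts stood for 0.193 to 0.230 CPM (counts scaled by library depth and composition), the level below which counting error dominates. All 12 markers of the tumor epithelium, such as Epcam and Cdh1, were detected in every library, with a summed level of 2768 to 3573 CPM in the model group and 2190 to 2985 CPM in the DMDD liposome group. Model replicate 2 stood apart in epidermal genes, as described below. In bulk RNA, fewer cells of a type and less RNA per cell cannot be told apart.

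Some members were read in every library and others almost wholly in 1, with a few, such as Dsg3 and Krt16, in between. Of the 59 members, 16 were detected in all 6 libraries. Model replicate 2 detected 56 members, and the other libraries 22 to 25. Together the members took 0.497% of the counts in model replicate 2, 0.397% in model replicate 3 and 0.261% to 0.299% in the other 4 libraries. Krt7, Krt8, Krt18 and Krt19 supplied 85.3% to 94.1% of those counts.

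**Figure D1:**
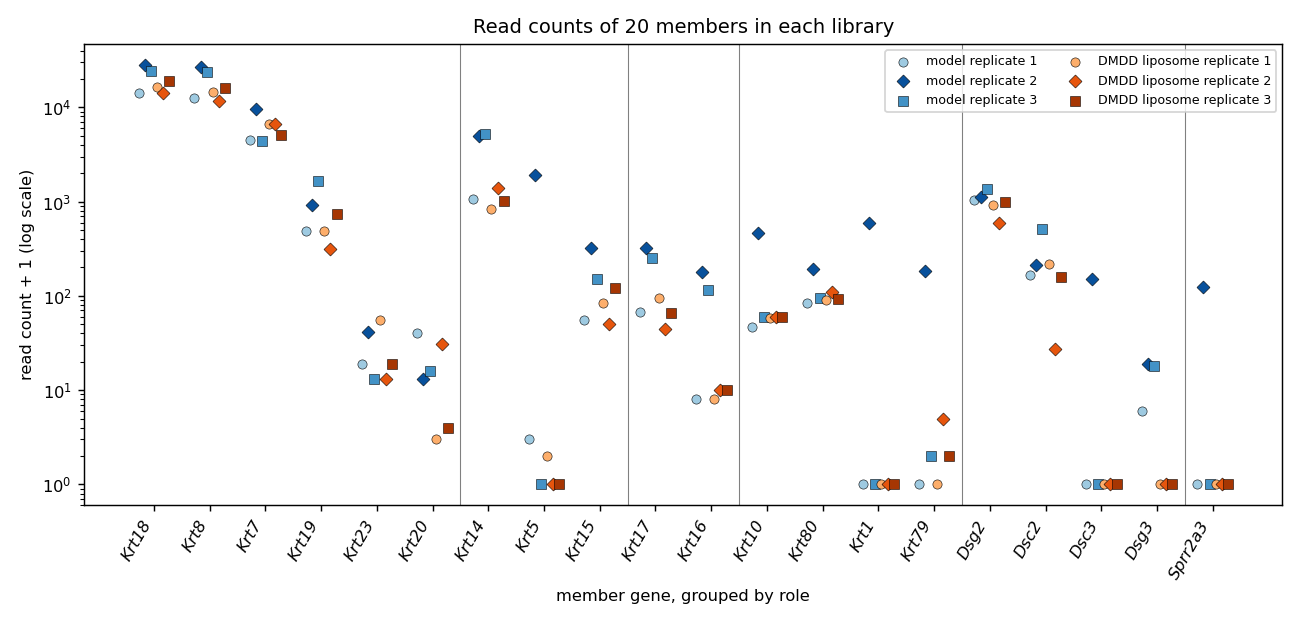
Read count plus 1 on a log axis for each of the 20 members with values printed in full, grouped by role between grey lines, with 1 point per library. Krt18 and Krt8 were at or above 11713 counts in all 6 libraries, while Krt1, Dsc3 and Sprr2a3 were read in model replicate 2 alone.

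As a group, simple epithelial keratins had the highest summed CPM in every library, mostly from Krt18 and Krt8. Per length, on the FPKM scale (read number scaled by gene length and library depth, deposited by the authors), Krt18 led every library. With replicates always given in the order 1 to 3, Krt18 counted 14288, 28163 and 24212 reads in model libraries against 16285, 14047 and 19141 after DMDD liposome. Krt8, its type II partner, had 12690, 26965 and 23796 reads in model libraries against 14650, 11713 and 16077 after DMDD liposome. Model replicates 2 and 3 were the highest for both genes, and model replicate 1 lay within the DMDD liposome range for both. The log2 fold change, DMDD liposome over model, was -0.50 ± 0.22 (SE) for Krt8 and -0.36 ± 0.20 for Krt18 (edgeR quasi-likelihood test over all genes, adjusted p = 0.644 and 0.700). Without model replicate 2 these values were -0.34 ± 0.23 and -0.20 ± 0.20, and without model replicate 1 they were -0.71 ± 0.14 and -0.54 ± 0.15 (adjusted p = 0.0800 and 0.144).

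The Krt8 to Krt18 ratio in FPKM stayed between 0.612 and 0.721 over the 6 libraries. Krt7, a type II keratin of glandular ducts, did not follow that pair. Krt7 counted 4463, 9532 and 4434 reads in model libraries against 6584, 6588 and 5081 after DMDD liposome, so that 2 of the model libraries were the lowest of all 6 and the third was the highest. Its log2 fold change was 0.07 ± 0.29 with all libraries and 0.46 ± 0.19 without model replicate 2 (edgeR adjusted p = 0.964 and 0.836). The Krt7 to Krt18 ratio in FPKM ran from 0.0643 in model replicate 3 to 0.165 in DMDD liposome replicate 2.

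Krt19, a small type I keratin of ducts and of many carcinomas, had 492, 923 and 1639 reads in model libraries against 486, 310 and 730 after DMDD liposome. The groups overlapped, with model replicate 3 highest, and the log2 fold change was -0.93 ± 0.41 (edgeR adjusted p = 0.644), or -0.45 without model replicate 3. Krt20, best known from the gut lining and urothelium, was low and scattered, at 39, 12 and 15 counts against 2, 30 and 3. Krt23, a type I keratin, had 18, 40 and 12 reads in model libraries against 55, 12 and 18 after DMDD liposome, with no separation of the groups (log2 fold change 0.34 ± 0.67). The 6 simple keratins summed to 2453, 4232 and 3553 CPM in model libraries against 2696, 2470 and 2797 CPM after DMDD liposome, a mean of 3413 ± 898 against 2654 ± 167 (SD, n = 3 each). The difference of -758 CPM, DMDD liposome minus model, was -348 CPM without model replicate 2 and -1238 CPM without model replicate 1.

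Of the basal keratins, Krt14 was read in every library, and Krt5 almost only in model replicate 2. Krt14 counted 1057, 4988 and 5261 reads in model libraries against 831, 1383 and 1008 after DMDD liposome. Model replicates 2 and 3 were above all other libraries, and model replicate 1 fell inside the DMDD liposome range. In CPM this was 249 ± 146 against 77.3 ± 24.0, a log2 fold change of -1.69 ± 0.50 (edgeR adjusted p = 0.626). The value was -1.47 ± 0.56 without model replicate 2 (adjusted p = 0.836) and -2.11 ± 0.24 without model replicate 1 (adjusted p = 0.0298).

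Krt5, the type II partner of Krt14, had 2, 1919 and 0 reads in model libraries against 1, 0 and 0 after DMDD liposome. Its CPM in model replicate 2 was 807-fold that of the next library, a ratio over 1 to 2 counts that carries a large counting error. Model replicate 3 thus held the highest Krt14 count of the study, 5261, with 0 counts of Krt5. Per length, Krt5 stood at 56.4 FPKM beside 190 FPKM of Krt14 in model replicate 2, and Krt14 at 198 FPKM in model replicate 3. Krt15, a further type I keratin of basal cells, had 55, 318 and 150 reads in model libraries against 84, 49 and 119 after DMDD liposome. Its groups overlapped, and the log2 fold change of -0.96 ± 0.55 was -0.26 ± 0.48 without model replicate 2 (edgeR adjusted p = 0.709 and 0.938).

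**Figure D2:**
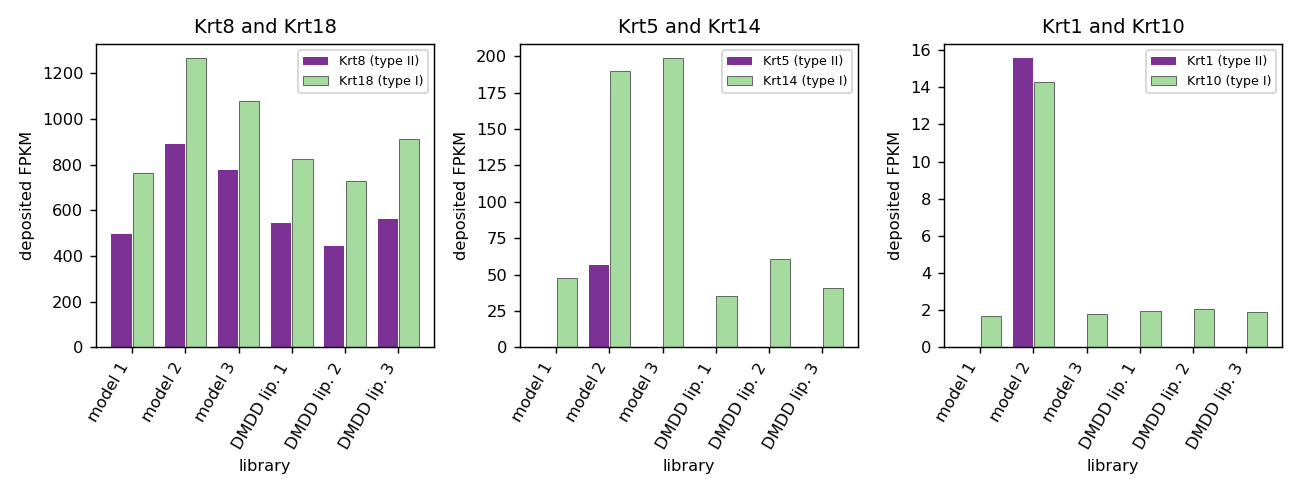
Deposited FPKM of 3 type II and type I keratin pairs, with a pair of bars per library. Krt8 kept to 0.612 to 0.721 of Krt18 throughout, Krt14 was read in all 6 libraries with Krt5 visible in model replicate 2 only, and Krt1 appeared in that library alone.

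Type II keratins other than Krt7 and Krt8 formed a visible share in model replicate 2 alone. Krt7 and Krt8 made up 99.6% to 99.8% of the summed FPKM of the 18 type II members in the other 5 libraries and 92.3% in model replicate 2. For the 16 type I members, Krt14, Krt18 and Krt19 made up 98.1% to 98.9% in those 5 libraries and 96.8% in model replicate 2. The summed FPKM of type I exceeded that of type II in every library, by 1543 to 1127 in model replicate 2 and 812 to 568 in DMDD liposome replicate 2.

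Keratins of activated or wounded epidermis split in the same manner. Krt17, also found in basal carcinoma cells, had 66, 323 and 251 reads in model libraries against 95, 44 and 65 after DMDD liposome. Model replicates 2 and 3 were the highest, and model replicate 1 lay below DMDD liposome replicate 1. The log2 fold change was -1.55 ± 0.51 (edgeR adjusted p = 0.626), and -1.16 ± 0.54 without model replicate 2 (adjusted p = 0.836).

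Krt16, induced in wounded and hyperproliferative epidermis, had 7, 176 and 115 reads in model libraries against 7, 9 and 9 after DMDD liposome. Model replicates 2 and 3 were far above the rest, and model replicate 1 equaled the lowest DMDD liposome library in counts. In the authors' deposited table, Krt16 was 10.9-fold higher in model (adjusted p = 0.0199). edgeR's filter on low counts left it out of the fit with all libraries, and without model replicate 1 edgeR gave it a log2 fold change of -3.97 ± 0.35 (adjusted p = 0.0298). Krt16 is one of the genes the family was chosen on, and it passed that filter through the high model libraries once the low one was gone, so this value is a description. Of the 50-base words of the longest protein-coding Krt16 transcript in GENCODE M21, 37.6% also occurred in another gene, and 11.4% of those of Krt14 occurred in Krt16, so reads of these genes may have been exchanged in counting. The Krt16 to Krt14 ratio in FPKM was 0.0383 in model replicate 2, 0.0237 in model replicate 3, and between 0.00706 and 0.00969 in all others. Krt6a and Krt6b, type II keratins of the same state, gave 88 and 93 counts in model replicate 2 but 0 elsewhere, at least 24.7-fold and 26.1-fold above a level of 3 counts in any of them. Krt6a shared 43.6% of its 50-base words with Krt6b, so the split between them is uncertain.

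Keratins of differentiated epidermis were a feature of model replicate 2. Krt1 had 591 counts there and 0 in each of the other 5 libraries, at least 166-fold above a level of 3 counts. Krt10, its partner, had 46, 467 and 59 reads in model libraries against 57, 58 and 58 after DMDD liposome. Model replicate 2 was 6.87-fold above the next library in CPM, and the other 5 lay together. The log2 fold change of Krt10 was -1.60 ± 0.81 with all libraries and 0.15 ± 0.28 without model replicate 2 (edgeR adjusted p = 0.671 and 0.941). In model replicate 2, Krt1 stood at 15.5 FPKM, beside an excess of Krt10 over the mean of the other libraries of 12.4 FPKM.

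Krt79, a type II keratin of hair canals and sebaceous ducts, had 0, 184 and 1 reads in model libraries against 0, 4 and 1 after DMDD liposome. Krt80, a type II keratin, was read evenly outside model replicate 2, at 82, 194 and 94 reads in model libraries against 89, 110 and 91 after DMDD liposome. Its log2 fold change of -0.27 ± 0.33 was 0.15 ± 0.26 without model replicate 2. The 7 members of this group summed to 9.81, 94.7 and 10.2 CPM in model libraries against 10.5, 13.0 and 10.4 CPM after DMDD liposome, and the difference of -27.0 CPM between group means was 1.28 CPM without model replicate 2.

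**Figure D3:**
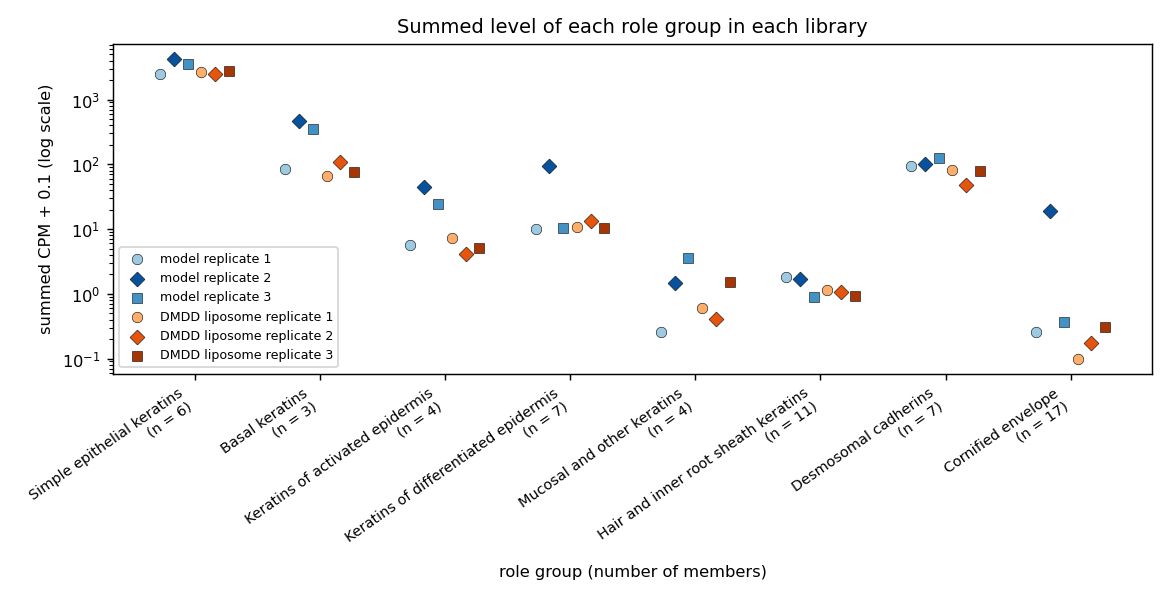
Summed CPM plus 0.1 on a log axis for each role group of members, with 1 point per library. Model replicate 2 stands alone for keratins of differentiated epidermis (94.7 CPM) and the cornified envelope (18.9 CPM), while basal keratins and keratins of activated epidermis are high in both model replicates 2 and 3.

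Mucosal and hair keratins were near the counting limit. Krt13, a keratin of inner mucosal linings, was the 1 mucosal member tested, at 2, 12 and 52 reads in model libraries against 7, 0 and 19 after DMDD liposome, with a log2 fold change of -1.26 ± 1.19 (edgeR adjusted p = 0.823). It has fewer counts than the other keratins given by library and is named here after its values were seen, since model replicate 3 and not model replicate 2 was its highest library. The 11 hair and inner root sheath keratins had at most 11 counts each in any library. Their sum was 1.61 CPM in model replicate 2 and 0.788 to 1.69 CPM elsewhere, so that library did not stand out in the sum. Krt28, Krt36 and Krt90 were read there alone, at 1 or 2 counts. Krt31, Krt39 and Krt86 were each read in 1 other library alone, also at 1 or 2 counts. Krt83 had its highest count, 11, in model replicate 2, and Krt87 its highest, 10, in model replicate 1.

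Among desmosomal cadherins, Dsg2 and Dsc2, the forms of simple epithelia, were read in every library. Dsg2 counted 1037, 1120 and 1366 reads in model libraries against 914, 596 and 985 after DMDD liposome. All DMDD liposome libraries were below all model libraries, at 59.0 ± 12.1 CPM against 80.5 ± 8.78 CPM, a log2 fold change of -0.45 ± 0.17 (edgeR adjusted p = 0.629). Dsc2 counted 167, 211 and 508 reads in model libraries against 219, 26 and 157 after DMDD liposome. DMDD liposome replicate 2 was the lowest and model replicate 3 the highest, the groups overlapped, and the log2 fold change was -1.08 ± 0.67 (edgeR adjusted p = 0.727), or -0.50 without model replicate 3.

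Dsg3, a desmoglein of stratified epithelia, counted 5, 18 and 17 reads in model libraries against 0 in all 3 DMDD liposome libraries. Its model mean of 0.887 ± 0.437 CPM was at least 4.13-fold higher than a level of 3 counts per DMDD liposome library. The groups did not overlap, and the authors' deposited table called Dsg3 higher in model (adjusted p = 0.0391), while edgeR's filter left it out. Unlike Krt1 or Krt5, Dsg3 was as high in model replicate 3 as in model replicate 2, at 1.12 and 1.16 CPM. For Dsc3, the desmocollin of basal epidermis, model replicate 2 gave 150 counts and every other library 0, at least 42.1-fold above a level of 3 counts. Dsg1a, a desmoglein of the upper epidermis, had 61 counts there and at most 1 elsewhere, and shared 31.6% of its 50-base words with Dsg1b.

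Cornified envelope genes were read almost only in model replicate 2. The 17 members summed to 293 counts in that library (18.9 CPM) and to 0 to 4 counts in each of the other 5, and 14 of the 17 had 0 counts outside it. Sprr2a3 led with 123 counts there, against 0 elsewhere. Of its 50-base words, 61.1% also occurred in Sprr2a1, so its counts may include that near copy. Lor had 74 counts there and at most 2 elsewhere, and the other members had 1 to 30 counts there. Ivl and Sprr1a, whose upstream DNA is printed above, gave 12 and 16 counts in model replicate 2 but at most 2 in any other library.

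The split between these patterns was described by the share of a member's scaled counts held by 1 library. Of 32 members with at least 20 counts in all, 11 had at least 90% of their signal in model replicate 2, where 0.278% of the 14010 genes with that many counts had. Krt1 and Krt5, on whose counts in this library the family was chosen, are among the 11, so nothing is read from that contrast. No other library held such a share of any member. The lowest of the 11 was Krt77, at 93.0%, and the next below the limit was Sprr1a, at 78.9%, followed by Krt10 at 60.4% and Krt16 at 53.5%. The other 27 members had under 20 counts, and 18 of them were read in model replicate 2 alone.

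**Figure D4:**
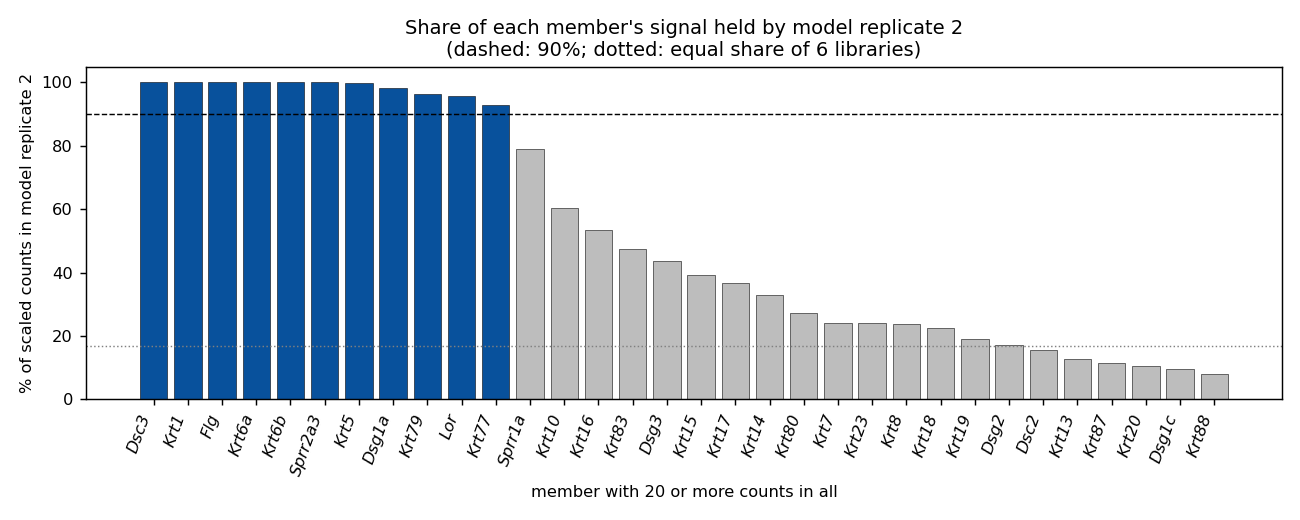
Percent of each member's scaled counts held by model replicate 2, for the 32 members with 20 or more counts in all. The 11 dark bars pass the dashed line at 90%, and Krt8, Krt18, Krt7 and Krt14 lie between 22.6% and 32.8%, nearer the dotted line of an equal share.

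Epidermal genes outside the family were also highest in this library as a sum. The epidermal keratinocyte list, with 19 genes in the table, summed to 322 CPM in model replicate 2 against 54.5 to 88.4 CPM in the others. Of the 322 CPM, Lgals7 made up 158 CPM and Lypd3 81.6 CPM. Of its 14 genes with at least 20 counts, 4 had 90% or more of their scaled counts there. Trp63, also listed, was at 5.74 CPM there, inside the range of the other libraries (3.75 to 9.97 CPM). Krtdap, a keratinocyte differentiation factor, had 257 counts there and at most 2 elsewhere, and Calm4, an epidermal calmodulin-like protein, had 127 counts there and 0 elsewhere. The sebaceous gland list summed to 16.8 CPM in model replicate 2 against 2.36 to 5.24 CPM, with 1 of its 7 genes, Elovl3, at 90% or more there. The hair follicle list, with 6 genes in the table, summed to 41.0 CPM against 11.8 to 18.7 CPM. Padi3, a gene read in every library, made up 39.2 CPM of the 41.0 CPM. S100a3 had 2, 13 and 0 reads in model libraries against 2, 3 and 2 after DMDD liposome, and Hoxc13 had 2 counts in model replicate 2 alone. Tchh had 4 counts in both model replicates 2 and 3. Crym was lowest in model replicate 2, and Lhx2 was at 0 there and at most 3 counts elsewhere. In all, 28 genes outside the family also had at least 90% of their scaled counts in model replicate 2. The part of these skin genes in the family's differences was not tested. In model replicate 3, Krt1, Krtdap and Calm4 were at 0, while Dmkn had 10 counts and Cst6 9, the highest counts outside model replicate 2. The epidermal list stood at 85.2 CPM there, inside the range of the other libraries, with 55.3 CPM from Lypd3 and 18.6 CPM from Lgals7. Both genes were read in every library. Krt14, Krt16 and Krt17 were high in model replicate 3, and the part of skin in this was not tested.

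For other cell types, model replicate 2 stood inside the range of the other 5 libraries for skeletal muscle (48.0 CPM against 33.0 to 265), fat cells (15.1 against 10.8 to 91.4) and myoepithelial genes (87.6 against 57.5 to 301) and for melanocytes (1.03 against 0.767 to 1.44). Of that melanocyte sum, Pmel, read in every library, made up 0.709 CPM. Dct and Tyrp1, at 4 and 1 counts and so near the counting limit, were read in model replicate 2 alone. Model replicate 2 was the lowest for red blood cell genes (9.74 against 23.0 to 37.0) and for luminal mammary genes (19.3 against 26.1 to 36.6). It was the highest for the 3 Langerhans cell genes (1416 CPM against 713 to 1313). Almost all of that sum was Epcam, also a tumor marker (1106 CPM), and Mfge8 (309 CPM). Cd207 had 1, 15 and 5 reads in model libraries against 1, 2 and 0 after DMDD liposome.

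Across all genes, the comparison of DMDD liposome with model called no member. edgeR tested 14 of the 59 members, the others having too few counts in too few libraries, and called 0 of the 14, where it called 0% of 12891 genes, with 986 of them at an unadjusted p under 0.05. At an unadjusted p under 0.05, edgeR found 3 of the 14 (Krt14, Krt17 and Dsg2), all lower in DMDD liposome, where 3.31% of all genes tested were that low. Of the tested members, 12 had a log2 fold change below 0, against 48.8% of all genes, and their median was -0.90 against 0.01. The members that passed the filter are those with counts in several libraries, so this median says nothing of the other 45. Groups did not overlap for 1 tested member lower in DMDD liposome (Dsg2), where 5.66% of all genes were, and for 0 higher, where 7.21% were. DESeq2 on the same counts called 2 of the 51 members with a p, Krt16 and Dsg3, where it called 0.353% of the 16736 genes with a p. The authors' deposited table called the same 2, where 0.161% of genes were called lower in DMDD liposome. The family was chosen on these 2 calls, so nothing is read from either share.

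Without model replicate 2, edgeR tested 15 members and called 0 (0% of 13075 genes). At an unadjusted p under 0.05 it found Krt14 and Dsg2 lower and Krt7 higher in DMDD liposome. These were 3 of the 15, where edgeR found 724 of the 13075 genes in either direction. Without model replicate 1, it tested 17 and called 2, Krt14 and Krt16, both lower in DMDD liposome, where 0.524% of 13159 genes were called lower, Krt16 with the limit given above. Of the 6 edgeR fits without 1 library, only this one called any member, and the library left out lay within or beside the DMDD liposome libraries for Krt14, Krt16 and Krt17. The authors' deposited table lists 8 members at a p of exactly 1, Krt1 and Krt5 among them. DESeq2 with default settings gave all 8 a missing p, its mark for a gene with an extreme count in 1 sample, so that p of 1 is not a test result.

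**Figure D5:**
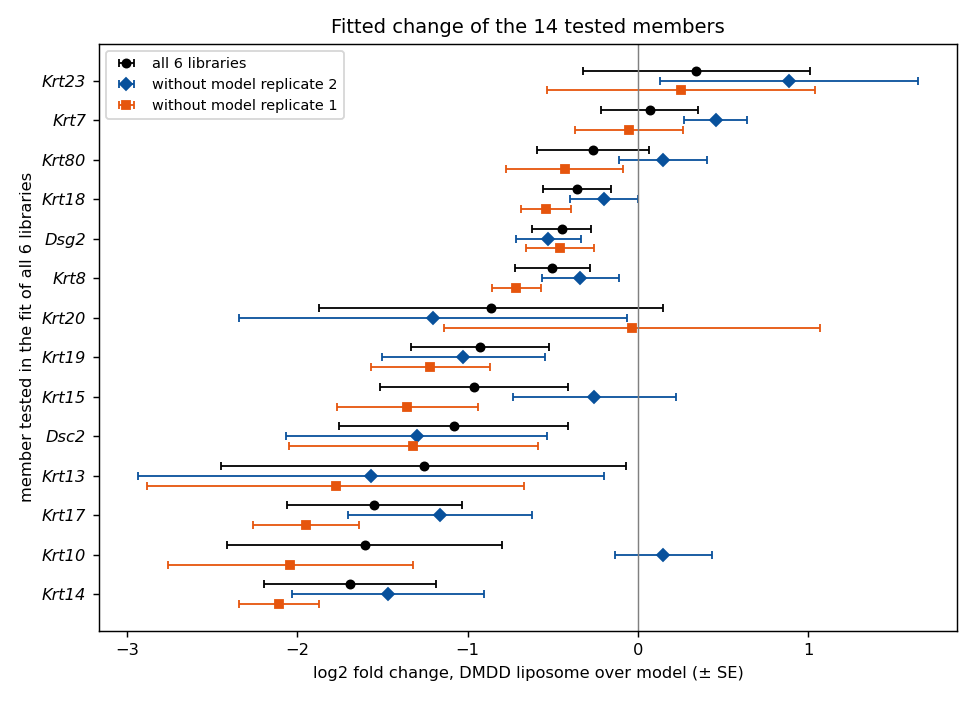
Log2 fold change of DMDD liposome over model with its standard error for the 14 tested members, from fits of all 6 libraries, without model replicate 2 and without model replicate 1. Krt10 went from -1.60 to 0.15 without model replicate 2, while Krt14 stayed between -2.11 and -1.47 in the 3 fits.

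Genes for the partners of these proteins had negative log2 fold changes, and none passed edgeR's test over all genes. In the desmosome plaque, which ties the cadherins to keratin, all 9 of 9 listed genes had a negative log2 fold change, with a median of -0.64. edgeR called 0 of the 9 and found 6 lower at an unadjusted p under 0.05, where 3.31% of all genes were. DESeq2 called 1, where it called 0.353% of genes, and groups did not overlap for 6, where 5.66% of all genes were lower without overlap. Pkp1, a plakophilin of stratified epithelium, had 154, 604 and 512 reads in model libraries against 172, 105 and 110 after DMDD liposome, and was the member called in the authors' deposited table (adjusted p = 0.0318). Model replicate 1 again lay below the highest DMDD liposome library in counts and CPM.

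Hemidesmosomes fix basal keratins to the basement membrane. All 9 of 9 listed genes had a negative log2 fold change, with a median of -0.68. edgeR called 0 of the 9, found 6 lower at an unadjusted p under 0.05 and 4 lower without overlap, and DESeq2 called 2, against the same shares of all genes (3.31%, 5.66% and 0.353%). The integrin subunit Itgb4 counted 8695, 12420 and 12608 reads in model libraries against 6209, 5153 and 8371 after DMDD liposome, with no overlap (log2 fold change -0.71 ± 0.17, edgeR adjusted p = 0.626). Its partner Itga6 had 2486, 2793 and 3099 counts against 1862, 1776 and 2080 (-0.49 ± 0.09, adjusted p = 0.603). Both were called in the authors' deposited table (adjusted p = 0.0298 for Itgb4 and 0.0112 for Itga6).

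Most markers of the tumor epithelium had fold changes of the same sign as these lists. Of the 12, 11 had a negative log2 fold change (48.8% of all genes), with a median of -0.58. At an unadjusted edgeR p under 0.05, 6 were lower (3.31% of all genes), and 4 were lower without overlap (5.66%). edgeR called 0 (0% of all genes) and DESeq2 called 2 (0.353%). Medians were positive for the tested genes of fat cells (2.83, 3 genes), skeletal muscle (0.53, 7 genes) and myoepithelial cells (0.70, 4 genes). So were those of red blood cells (0.58, 4 genes), melanocytes (0.69, 1 gene) and luminal mammary cells (0.30, 1 gene). Those of the epidermal (-1.13, 7 genes), sebaceous (-0.53, 2 genes), hair follicle (-0.44, 2 genes) and Langerhans cell lists (-0.37, 2 genes) were negative. The 2 sebaceous genes had opposite signs, as had the 2 hair follicle genes. The 2 Langerhans cell genes tested were Epcam and Mfge8. In the lists with positive medians, edgeR and DESeq2 called 0 genes. At an unadjusted edgeR p under 0.05, 1 fat, 1 muscle and 2 myoepithelial genes were higher (986 of 12891 genes in either direction, 427 of them lower). Muscle genes summed to 123, 33.0 and 265 CPM after DMDD liposome, and fat cell genes to 41.9, 91.4 and 11.0 CPM. The part of these cell types in the differences of keratin and junction genes was not tested.

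Enzymes of cornification cross-link the envelope, cut its proteins and make barrier lipids. Of 16 listed, edgeR tested 5, all with a negative log2 fold change (median -0.37), and called 0, with 0 at an unadjusted p under 0.05 and 0 called by DESeq2. Model replicate 2 detected all 16 of them, and the other libraries 7 to 9. Of 15 keratinocyte transcription factors in the table, edgeR tested 12, of which 10 were negative (median -0.37), called 0 and found 1 lower at an unadjusted p under 0.05 (Ovol1), where 3.31% of all genes were. DESeq2 called 1, where it called 0.353% of genes, and edgeR's filter had left that gene out. It was Ehf, an epithelial ETS factor, with 9, 26 and 45 reads in model libraries against 0, 0 and 1 after DMDD liposome, and the authors' deposited table called it (adjusted p = 0.0136). Trp63, the factor that defines basal keratinocytes, had 100, 89 and 58 reads in model libraries against 70, 132 and 55 after DMDD liposome. It did not separate the groups, was not raised in model replicate 2, and is given here after its values were seen. Other factors of the list were highest in that library, among them Zfp750, Ovol1, Tfap2c and Grhl1, while Klf4 and Gata3 were lowest there. Zfp750 had 3, 36 and 1 reads in model libraries against 2, 0 and 3 after DMDD liposome. These factors too are named after their values were seen.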

How the data were processed

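The 3 model and 3 DMDD liposome tumor RNA libraries were grouped by the sample descriptions. The authors deposited read counts per gene, the counts divided by a size factor (a normalized signal), FPKM, and their comparison as log2 fold changes with p-values, per the file headers. The submitters' processing notes name DESeq2 and genome build mm9; the sources used here do not give the aligner, counter, annotation or strand setting, so reads of near copies may be split. Counts went into edgeR 4.0.16 under R 4.3.3: filterByExpr (minimum count 10, total 15), TMM scaling, two-sided quasi-likelihood test over all 6 libraries, Benjamini-Hochberg adjustment over all genes tested, threshold 0.05. Standard errors came from the F statistic. The test was checked on simulated data.

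Members and gene lists were chosen with earlier results of these data known. Values in every library are printed for members with at least 100 counts in all or called in the deposited comparison; members below that limit named singly were chosen after their values were seen. Shared sequence was measured as 50-base words of GENCODE M21 transcripts. Alternatives were DESeq2 1.42.0's size factors and Wald test, no filter, a replicate block and leaving out each library, and, for the share in 1 library, a limit of 50% and of 100 counts.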

Additional observations from a re-analysis of the deposited data

How the results depend on the processing

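edgeR called 0 members and 0 genes in all with DESeq2's size factors, with no filter on low counts and with the replicate block. DESeq2's Wald test called 2 members and 59 genes. Leaving out 1 library at a time, edgeR called 0 to 2 members and 0 to 112 genes, the highest values both without model replicate 1. The median log2 fold change over tested members, -0.90 with all libraries, was -1.88 with no filter, which admits all 59 members and so those read in model replicate 2 alone, and ran from -1.22 to -0.45 over the fits without 1 library (-1.22 without model replicate 1, -0.53 without model replicate 2, -0.45 without model replicate 3). Direction changed for Krt10 (-2.05 to 0.15 over those fits), Krt80 (-0.45 to 0.15), Krt23 (-0.56 to 0.89) and Krt7 (-0.15 to 0.46): for Krt10 and Krt80 at 0.15 without model replicate 2, for Krt23 at -0.56 without DMDD liposome replicate 1, and for Krt7 at -0.05, -0.15 and -0.04 without model replicate 1, model replicate 3 and DMDD liposome replicate 2. With at least 100 counts in all, 5 members in place of 11 had 90% of their signal in 1 library, since fewer members qualify. The cause of the other changes was not tested. Same-numbered libraries deviated from their group means with correlations of 0.09, 0.11 and 0.12, so the numbers were not taken to pair the samples, although each library correlated best with its own number, a hint from the data and not the design; with the replicate block the median was -0.80, and 0 members were called. Groups of 3 and low counts limit what could be called among the 45 members not tested.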
